A study of Mus musculus with 20 samples.

Results

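The transcripts described here encode 9 enzymes or enzyme subunits of the citric acid cycle: Cs, Idh3a, Idh3b, Idh2, Ogdh, Sucla2, Suclg1, Fh1 and Mdh2. They were taken by gene symbol from a deposited table of 21844 genes, and 9 of the 9 were in the table and passed the filter on low counts, as did 14359 genes in all. The study sequenced RNA of mouse hindlimb muscle to ask how muscle Bmal1, a core transcription factor of the circadian clock, and 6 weeks of daily treadmill training affect it. All mice are labelled Cre+:iMSBmal1 fl/fl, a floxed Bmal1 line carrying a Cre recombinase, so the vehicle mice carried both alleles too. The 4 groups of 5 libraries each are, in the labels' words for treatment, Vehicle + No Exercise, iMSBmal1KO + No Exercise, Vehicle + Exercise Training and iMSBMal1KO + Exercise Training, and are called vehicle sedentary, knockout sedentary, vehicle trained and knockout trained below. The promoter that drives Cre, the agent that induces it, and the age and sex of the mice are not given in the sources used here. The labels name both the gastrocnemius and the tibialis anterior, and collection is given as 48 hours post in one place and as 47 hours after exercise in another.

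The citric acid cycle is the mitochondrial pathway that oxidises acetyl groups from carbohydrate, fat and amino acids to carbon dioxide, and passes the electrons to the respiratory chain as NADH and as reduced flavin. Its enzymes are encoded by nuclear genes and imported into the matrix. Muscle rich in oxidative fibres holds more of them than glycolytic muscle, and citrate synthase activity is a common measure of mitochondrial content in muscle after endurance training.

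Total estimated counts lay between 10610333 and 19153527 per library. Knockout trained libraries 1 and 4, and 3 and 5, were nearly identical in their counts, so each pair was summed and counted as 1 sample, which leaves n = 3 in that group and 18 samples in all. Vehicle trained library 2 stood apart, with 4858 of 14359 genes more than 2-fold from the rest of its group. The next highest count was 1118, for knockout trained sample 1+4, and vehicle trained library 2 differed in Arntl too. Its Arntl (Bmal1) level was 143.7 CPM (the count relative to the TMM-scaled library total, the unit used throughout), whereas the other vehicle libraries of both kinds lay between 5.96 and 7.53 CPM. The knockout label went with more Arntl, not less, when vehicle trained library 2 is set aside. It stood at 10.4 to 17.7 CPM in sedentary and 8.87 to 15.7 CPM in trained samples of that label. Directions below are therefore drawn from the labels, and the deletion of Bmal1 itself was not tested. Nothing in the labels says that the libraries of a group came from separate animals, so p-values measure the spread between these samples only, which may be technical. Vehicle trained library 2 entered the fits, and calls that change without it are given both ways. The other trained samples did not all lie closest to their own group. Differences at high counts, relative to sampling noise, were 7.15 between knockout trained library 1 and knockout sedentary library 4. They were 65.9 and 41.6 between knockout trained library 1 and knockout trained libraries 2 and 3. Vehicle trained library 1 stood 15.7 from knockout trained library 2 and 23.1 to 37.5 from vehicle trained libraries 3 to 5. The cause was not tested.

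In outline, Sucla2 was the 1 cycle gene of the 9 past the threshold, higher in the libraries labelled knockout than in vehicle libraries of trained muscle. The other 8 had positive log2 changes in that comparison, between 0.27 and 0.53, and did not pass the test. The trained vehicle samples were the lowest of the 4 groups for each of the 9 means, and the knockout trained samples were the highest for Cs, Idh3a, Idh3b, Sucla2, Suclg1, Fh1 and Mdh2. No comparison of trained with sedentary muscle passed the test for any of the 9.

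**Figure D1:**
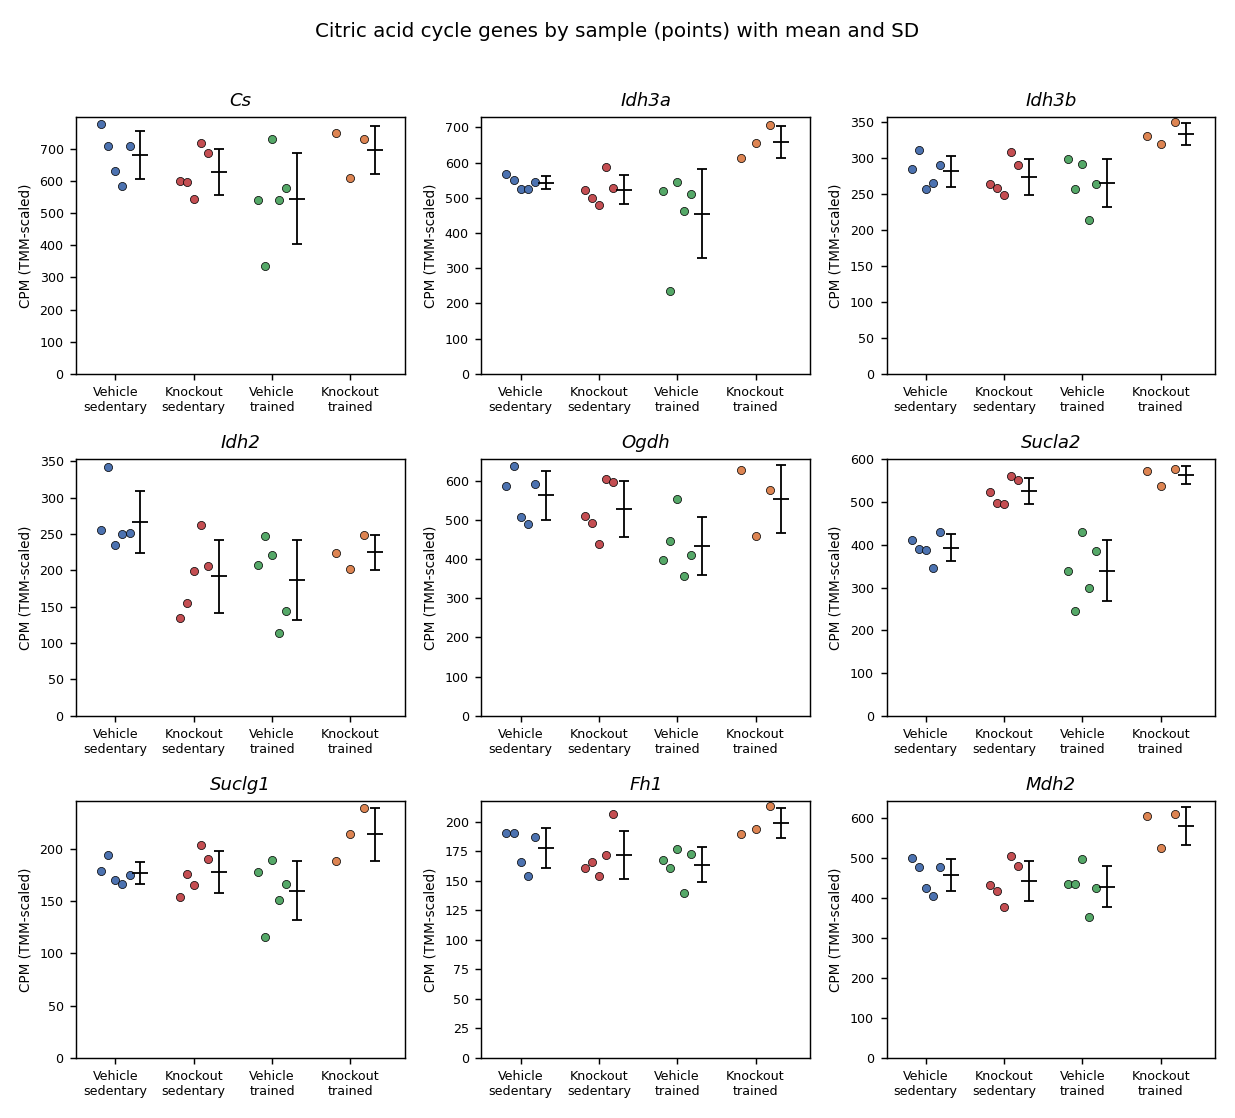
TMM-scaled CPM (y axis, from 0) of each of the 9 cycle genes in the 18 samples, by group (x axis), with 1 point per sample and the mean and SD beside the points. The Sucla2 points of the knockout groups, 496 to 576 CPM, lie above those of the vehicle groups, 246 to 429 CPM, and the lowest Idh3a point, 236 CPM, is vehicle trained library 2.

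Cs encodes citrate synthase, which joins acetyl-CoA to oxaloacetate and so opens the cycle (ENSMUSG00000005683, chr10:128337734-128362479, plus strand, in the GENCODE M21 annotation of GRCm38; the count table itself holds no coordinates). It stood at 777, 711, 632, 586 and 709 CPM in vehicle sedentary libraries 1 to 5 and at 599, 597, 543, 719 and 687 CPM in knockout sedentary libraries 1 to 5. It was measured at 541, 334, 730, 542 and 577 CPM in vehicle trained libraries 1 to 5, and at 749, 611 and 730 CPM in the 3 knockout trained samples, given here and below in the order 1+4, 2 and 3+5. The groups overlapped in every comparison, and the low value of 334 CPM belongs to vehicle trained library 2. The log2 change between knockout and vehicle in trained muscle was 0.35 (SE 0.180, edgeR adjusted p = 0.324), and 0.23 (adjusted p = 0.329) without that library. In sedentary muscle it was -0.12 (SE 0.157, edgeR adjusted p = 0.977).

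Idh3a and Idh3b encode the catalytic alpha subunit and the beta subunit of the NAD-dependent isocitrate dehydrogenase, the step that commits isocitrate to oxidation. Idh3a (ENSMUSG00000032279, chr9:54586334-54604661, plus strand) was at 567, 551, 526, 524 and 545 CPM in vehicle sedentary and at 521, 500, 479, 587 and 528 CPM in knockout sedentary libraries. In trained muscle it was at 518, 236, 546, 461 and 512 CPM in vehicle libraries and at 614, 657 and 705 CPM in knockout samples. The 3 knockout trained values lay above every other sample, and vehicle trained library 2 held less than any other sample. The log2 change between knockout and vehicle in trained muscle was 0.53 (SE 0.183, edgeR adjusted p = 0.132). Without vehicle trained library 2 it was smaller, at 0.38 (SE 0.0918), and past the threshold (edgeR adjusted p = 0.0146).

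Idh3b (ENSMUSG00000027406, chr2:130279309-130284547, minus strand) was at 285, 311, 257, 265 and 290 CPM in vehicle sedentary and at 263, 258, 249, 308 and 290 CPM in knockout sedentary libraries. Trained libraries held 299, 256, 292, 214 and 264 CPM in vehicle libraries and at 331, 320 and 350 CPM in knockout samples. Here too the knockout trained values lay above all 15 other samples, by a narrow margin over the highest vehicle sedentary library. The log2 change in trained muscle was 0.33 (SE 0.117, edgeR adjusted p = 0.143). Idh3b shares 5 exon bases, 0.146% of its exon length, with Nop56 on the opposite strand, and strandedness of the counting is not given in the sources used here. The gamma subunit gene Idh3g rose in the same comparison, from between 140.5 and 212.8 CPM in vehicle trained libraries to between 225.0 and 254.1 CPM in knockout trained samples (log2 change 0.48, SE 0.124, edgeR adjusted p = 0.0400).

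Idh2 encodes the NADP-dependent mitochondrial isocitrate dehydrogenase, which carries out the same conversion but makes NADPH (ENSMUSG00000030541, chr7:80094846-80115392, minus strand). It was at 255, 342, 234, 250 and 251 CPM in vehicle sedentary and at 135, 155, 200, 263 and 206 CPM in knockout sedentary libraries. In trained muscle it was at 208, 247, 221, 114 and 145 CPM in vehicle libraries and at 224, 201 and 249 CPM in knockout samples. All but 1 library in each of the knockout sedentary and vehicle trained groups lay below the lowest vehicle sedentary value. Relative to its mean, Idh2 varied most of the 9 within these groups, with a coefficient of variation of 26.0% in knockout sedentary and 29.7% in vehicle trained libraries. The log2 change was -0.48 (SE 0.202, edgeR adjusted p = 0.397) for knockout against vehicle in sedentary muscle and -0.51 (SE 0.203, edgeR adjusted p = 0.283) for trained against sedentary in vehicle muscle. Neither passed the test. These comparisons share the vehicle sedentary libraries.

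The 4 libraries with the least Idh2 were among the 5 with the lowest mean of slow and oxidative fibre markers. The mean log2 level of 8 such markers (Myh7, Myh2, Tnni1, Tnnt1, Tnnc1, Myl2, Myl3 and Atp2a2), relative to vehicle sedentary muscle, was -0.88 and -0.85 in knockout sedentary libraries 1 and 2, where Idh2 was 135 and 155 CPM. It was -1.53 and -1.34 in vehicle trained libraries 4 and 5, where Idh2 was 114 and 145 CPM. In knockout sedentary library 4, with 263 CPM of Idh2, it was 0.33, and in vehicle sedentary library 2, with 342 CPM, it was 0.47. Vehicle trained library 2, at -1.01 with 247 CPM, and vehicle trained library 1, at 0.26 with 208 CPM, did not follow this order. Knockout trained sample 2 did not follow it either, at 0.35 with 201 CPM. This side-by-side reading was made after the values were seen, and the part of fibre type in the Idh2 values was not tested.

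Ogdh encodes the first component of the 2-oxoglutarate dehydrogenase complex, which makes succinyl-CoA (ENSMUSG00000020456, chr11:6291633-6356642, plus strand). It was at 587, 639, 509, 490 and 591 CPM in vehicle sedentary and at 511, 493, 438, 605 and 598 CPM in knockout sedentary libraries. Among trained libraries it was at 397, 446, 553, 357 and 409 CPM in vehicle libraries and at 628, 459 and 577 CPM in knockout samples. Vehicle trained libraries other than library 3 lay below all vehicle sedentary libraries. The log2 change of training in vehicle muscle was -0.38 (SE 0.134, edgeR adjusted p = 0.272), and that of the knockout label in trained muscle was 0.36 (SE 0.154, edgeR adjusted p = 0.235). For the partner components, Dlst had a log2 change of 0.30 (SE 0.135, edgeR adjusted p = 0.261) and Dld, which other dehydrogenase complexes share, one of 0.22 (SE 0.133, edgeR adjusted p = 0.401) between knockout and vehicle in trained muscle. No test compared Ogdh with its partners.

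BMAL1 binds DNA with its partner CLOCK at E-boxes, for which the letters CACGTG were searched in promoter windows of RefSeq (GRCm38.p6) that run from 250 bases before to 50 bases after an annotated start. Of the 9 genes, 8 had a window and Ogdh was the only one of them with this E-box, which stands in 7.15% of all 32851 windows and in a window of 8.09% of genes. Ogdh has 6 windows, more than a gene with 1 start, and so more sequence in which to match. It is shown because it is the single match to the motif of the targeted factor, with the E-box in capitals.
Ogdh E-box, chr11:6292049-6292076, plus strand: tcgcggcgtgtCACGTGgaccggtcgct
It begins 110 bases before one annotated start of Ogdh, and another CACGTG lies before 2 further starts of the gene. A match of letters is a description of this sequence and no evidence of binding.

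Succinyl-CoA ligase turns succinyl-CoA into succinate and conserves the energy as ATP or GTP. Suclg1 encodes the alpha subunit that both forms share, Sucla2 the beta subunit of the ATP-forming enzyme and Suclg2 the beta subunit of the GTP-forming enzyme. Sucla2 (ENSMUSG00000022110, chr14:73525319-73596142, plus strand) was the member with the largest difference between knockout and vehicle libraries of trained muscle, and Suclg2 had the smallest change of the 17 cycle genes examined there.

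Sucla2 was at 410, 391, 388, 345 and 429 CPM in vehicle sedentary and at 524, 498, 496, 562 and 551 CPM in knockout sedentary libraries. The sedentary groups did not overlap. In trained muscle it was at 338, 246, 429, 299 and 385 CPM in vehicle libraries and at 573, 538 and 576 CPM in knockout samples, again with no overlap. The fold was 1.66 in trained muscle (log2 change 0.73, SE 0.140, edgeR adjusted p = 0.00657), so Sucla2 rose there. In sedentary muscle the fold was 1.34 (log2 change 0.42, SE 0.124), which missed the threshold (edgeR adjusted p = 0.0975). Vehicle trained library 2 is no sedentary sample but enters the shared estimate of spread. With it left out, the log2 change in sedentary muscle was 0.43 (SE 0.0925, edgeR adjusted p = 0.00554) and that in trained muscle 0.64 (SE 0.111, edgeR adjusted p = 0.00107). When only vehicle and knockout trained samples entered the fit, the change of 0.72 was not past the threshold (edgeR adjusted p = 0.312). Training itself gave Sucla2 log2 changes of -0.21 (SE 0.123, edgeR adjusted p = 0.403) in vehicle and 0.10 (SE 0.142, edgeR adjusted p = 0.964) in knockout muscle. The difference between the knockout effects in trained and sedentary muscle was 0.31 (SE 0.188, edgeR adjusted p = 0.697) and did not pass the test.

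Suclg1 (ENSMUSG00000052738, chr6:73248382-73276911, plus strand) was at 179, 194, 170, 167 and 175 CPM in vehicle sedentary and at 154, 176, 166, 204 and 190 CPM in knockout sedentary libraries. In trained muscle it was at 178, 116, 190, 152 and 166 CPM in vehicle libraries and at 189, 214 and 240 CPM in knockout samples. The sedentary groups overlapped, and in trained muscle 1 vehicle library reached the knockout values. The log2 change was 0.01 (SE 0.123, edgeR adjusted p = 1.00) in sedentary and 0.42 (SE 0.141, edgeR adjusted p = 0.123) in trained muscle. Suclg2 lay between 46.3 and 63.0 CPM in all 18 samples, with log2 changes of -0.13 (SE 0.0948, edgeR adjusted p = 0.839) in sedentary and 0.10 (SE 0.109, edgeR adjusted p = 0.672) in trained muscle.

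The ratio of Sucla2 to Suclg2 within a sample, which no library scaling can alter, was 6.87 ± 0.545 (SD, n = 5) in vehicle sedentary and 10.1 ± 0.790 (SD, n = 5) in knockout sedentary libraries. It was 6.65 ± 1.16 (SD, n = 5) in vehicle trained and 10.4 ± 0.928 (SD, n = 3) in knockout trained samples. Vehicle values ran from 4.86 to 7.75 over both states, and those of samples labelled knockout from 8.92 to 11.3, so the ratio separated the labels in sedentary and in trained muscle. The ratio was formed after the levels had been seen and is given as a description without a test. Sucla2 to Suclg1 gave 2.22, 2.98, 2.12 and 2.65 as group means in the same order.

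**Figure D2:**
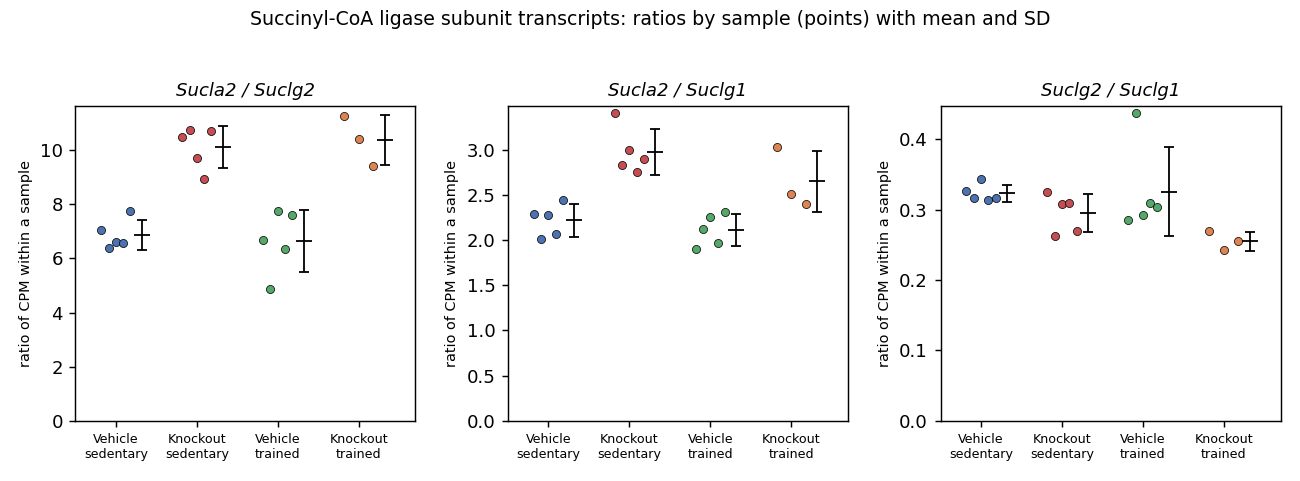
Ratios of CPM within a sample (y axes, from 0) between the transcripts of the succinyl-CoA ligase subunits, by group (x axis), with 1 point per sample and the mean and SD beside the points. Sucla2 to Suclg2 lies at 8.92 or above in every sample labelled knockout and at 7.75 or below in every vehicle sample, while Suclg2 to Suclg1 overlaps between knockout and vehicle samples in sedentary muscle and is lower in knockout samples in trained muscle, at 0.242 to 0.269 against 0.285 to 0.437.

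The promoter sequences of the beta subunit genes are shown because the ratio of Sucla2 to Suclg2 separated the labels. For each gene, the longest stretch of the RefSeq window (GRCm38.p6) before the start that lies in no annotated exon is shown, 96 bases for Sucla2 and 250 for Suclg2. The RefSeq start of Sucla2 lies inside its GENCODE M21 span, which begins at chr14:73525319, so the Sucla2 stretch is not upstream of that span. The 1 motif match of Sucla2 is added, in which the capitals mark a loose form of the NRF1 site (GCGCA, then any base, then GCGC) read on the opposite strand.
Sucla2 upstream, chr14:73552536-73552631, plus strand: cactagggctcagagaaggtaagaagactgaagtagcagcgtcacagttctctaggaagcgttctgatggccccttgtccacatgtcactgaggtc
Sucla2 NRF1-type match, chr14:73552760-73552787, plus strand: tgcgtctctGCGCCTGCGCggtgcccag
Suclg2 upstream, chr6:95718847-95719096, minus strand: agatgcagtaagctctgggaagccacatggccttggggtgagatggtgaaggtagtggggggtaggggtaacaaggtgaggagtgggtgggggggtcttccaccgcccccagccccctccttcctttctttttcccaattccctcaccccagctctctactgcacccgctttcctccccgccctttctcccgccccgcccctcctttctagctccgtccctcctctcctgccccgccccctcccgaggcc
The other motifs searched on both strands were TCAAGGTCA and its core AAGGTCA (estrogen-related receptors), the strict NRF1 form with T as the free base (contained in the loose form), CCGGAAG (ETS factors such as GABP) and TTATGNAA (D-box). The loose NRF1 form stands in 4.60% of all windows, CCGGAAG in 8.86%, AAGGTCA in 4.72% TTATGNAA in 3.38%, the strict NRF1 form in 0.971% and TCAAGGTCA in 0.423%. Among the 8 members with a window, Sucla2 held the loose NRF1 form, Idh3b held CCGGAAG, Ogdh held AAGGTCA, and none held TCAAGGTCA, the strict NRF1 form or TTATGNAA. The Suclg2 window held none of the motifs searched.

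Fh1 encodes fumarase, which hydrates fumarate to malate (ENSMUSG00000026526, chr1:175600374-175625635, minus strand). It was at 191, 191, 166, 154 and 187 CPM in vehicle sedentary and at 161, 166, 154, 172 and 206 CPM in knockout sedentary libraries. The trained libraries held 168, 161, 177, 140 and 173 CPM in vehicle libraries and at 190, 194 and 214 CPM in knockout samples. The trained groups did not overlap, and the sedentary groups did. The log2 change in trained muscle was 0.28 (SE 0.117, edgeR adjusted p = 0.213), and Fh1 did not stand out in vehicle trained library 2. The reaction before it belongs to succinate dehydrogenase, which is also complex II of the respiratory chain. Of its 4 subunit genes, Sdhc, Sdhd and Sdhb rose in the trained comparison, with log2 changes of 0.58 (SE 0.115, edgeR adjusted p = 0.00822), 0.56 (SE 0.132, adjusted p = 0.0247) and 0.56 (SE 0.147, adjusted p = 0.0439), and Sdha had 0.37 (SE 0.155, edgeR adjusted p = 0.217).

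Mdh2 encodes mitochondrial malate dehydrogenase, which restores oxaloacetate and also serves the malate-aspartate shuttle (ENSMUSG00000019179, chr5:135778480-135790398, plus strand). It was at 501, 479, 425, 405 and 479 CPM in vehicle sedentary and at 433, 418, 377, 505 and 480 CPM in knockout sedentary libraries. With training it was at 436, 434, 498, 353 and 424 CPM in vehicle libraries and at 606, 525 and 611 CPM in knockout samples. The knockout trained values again lay above the 15 other samples, and vehicle trained library 2 was at the group's middle. The share of all genes with knockout trained values above the 15 others, as for Idh3a, Idh3b and Mdh2, is not given here. The log2 change in trained muscle was 0.44 (SE 0.126, edgeR adjusted p = 0.0656), short of the threshold, and 0.45 (SE 0.123, edgeR adjusted p = 0.0286) without vehicle trained library 2. Trained against sedentary in knockout muscle gave 0.39 (SE 0.126, edgeR adjusted p = 0.257), the smallest adjusted p of the 9 in that comparison. The cytosolic counterpart Mdh1 rose between vehicle and knockout trained samples, by a log2 change of 0.71 (SE 0.186, edgeR adjusted p = 0.0426).

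**Figure D3:**
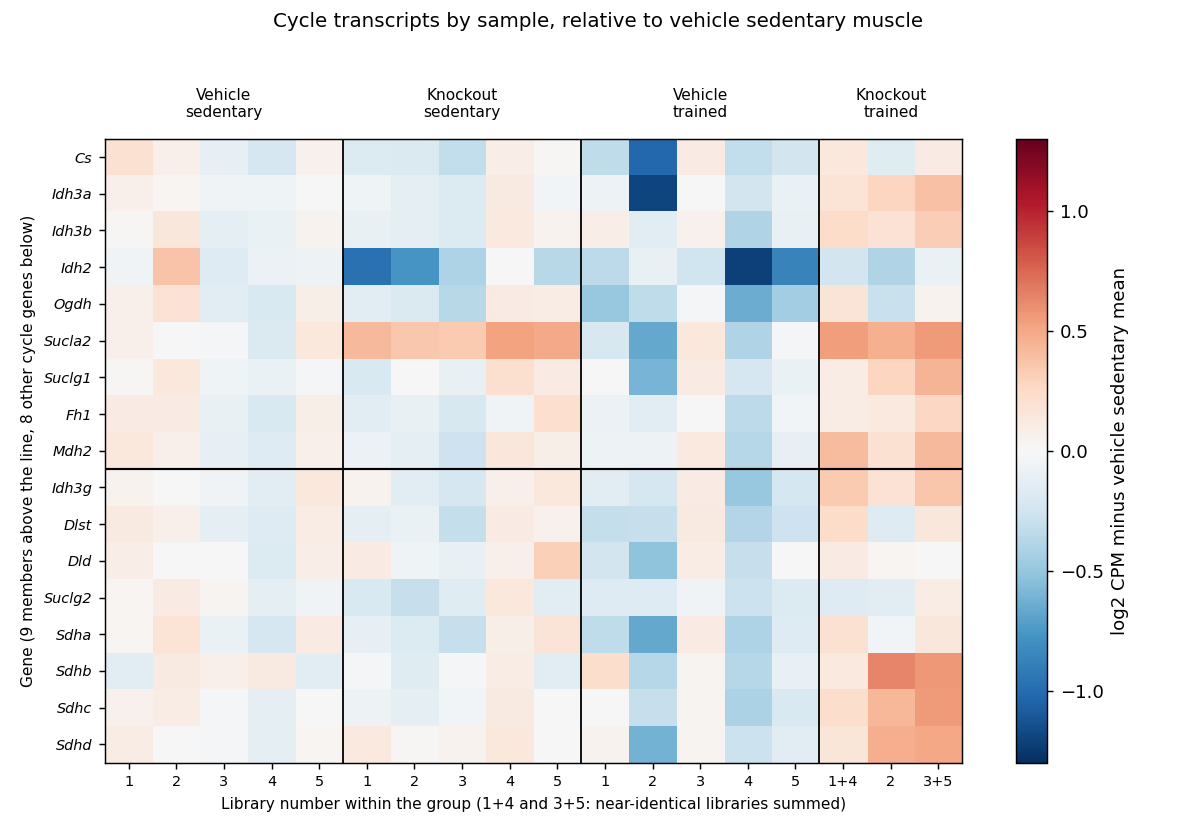
Log2 CPM of the 9 cycle genes (above the line) and 8 other cycle enzyme genes (below it) minus the vehicle sedentary mean of each gene (colour scale), with 1 column per sample (x axis). Sucla2 is red in all samples labelled knockout, Idh2 is bluest in knockout sedentary libraries 1 and 2 and vehicle trained libraries 4 and 5, and Cs and Idh3a are bluest in vehicle trained library 2.

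Read as a group in sedentary muscle, the 9 genes gave no call with edgeR, where 2.33% of all tested genes were called. Without TMM scaling, with DESeq2, with the 2 sedentary groups alone or with voom quality weights the count was 1. With edgeR, 2 of the 9 (Sucla2 and Idh2) had an unadjusted p under 0.05, against 9.81% of all genes. Their median log2 change was -0.05, beside 0.01 over all genes, of which 52.3% had a positive change. Without vehicle trained library 2 Sucla2 was called, where 6.98% of all genes were. Sucla2 was the only member of the 9 whose sedentary groups did not overlap, with the knockout libraries higher, as was so for 3.93% of all genes. The signs of the small changes here turned with the scaling: 2 of 9 were positive with TMM and 6 of 9 with library totals alone.

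In trained muscle, 1 of the 9 (Sucla2) was called, where 3.29% of all genes were called and 1.99% were called higher. The changes of all 9 were positive, with a median of 0.36, beside -0.03 over all genes, of which 46.8% were positive. An unadjusted p under 0.05 was reached by 7 of the 9 and by 17.2% of all genes. The knockout samples lay above all vehicle libraries for 5 of the 9 (Idh3a, Idh3b, Sucla2, Fh1 and Mdh2) and for 5.08% of all genes. Without vehicle trained library 2, 3 of the 9 were called (Idh3a, Sucla2 and Mdh2), where 8.66% of all genes were, and the median was 0.37. The 9 signs were positive also with library totals alone.

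For training in vehicle muscle, edgeR called no gene among all tested (0%), and none of the 9. DESeq2 called 15 genes, none of the 9 among them. All 9 changes were negative, from -0.51 for Idh2 to -0.09 for Idh3b, with a median of -0.21 beside 0.03 over all genes, of which 53.7% were positive. The groups overlapped for all 9, whereas 1.87% of all genes had groups that did not overlap. An unadjusted p under 0.05 was reached by 2 of the 9 (Ogdh and Idh2) and by 15.2% of all genes. Without vehicle trained library 2 the median was -0.11.

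For training in knockout muscle, edgeR again called 0% of genes and none of the 9, whereas DESeq2 called 198 genes with 1 of the 9 among them. All 9 changes were positive with TMM, from 0.07 for Ogdh to 0.39 for Mdh2, with a median of 0.23 beside -0.02 over all genes, where 47.4% of all genes were positive. With library totals alone the median of all genes moved to -0.15, and Ogdh and Sucla2 turned negative. An unadjusted p under 0.05 was reached by 2 of the 9 (Idh3b and Mdh2) and by 9.71% of all genes. The trained values lay above all sedentary values for 3 of the 9 (Idh3a, Idh3b and Mdh2), as for 4.45% of all genes. Without vehicle trained library 2, edgeR called 121 genes (0.843%) and none of the 9.

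The test of whether the training effect differed between knockout and vehicle muscle called 0% of genes and none of the 9 with edgeR. DESeq2 called 26 genes and none of the 9. The 9 differences were positive, from 0.31 for Sucla2 to 0.74 for Idh2, with a median of 0.45 beside -0.02 over all genes, where 47.2% of all genes were positive, and 7 of the 9 had an unadjusted p under 0.05, against 7.49% of all genes. The smallest adjusted p was 0.616, for Mdh2. The 5 contrasts share their groups, so their values are not independent of one another. The 9 genes also followed one another over the samples to different degrees, so their signs and p-values are not separate outcomes.

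**Figure D4:**
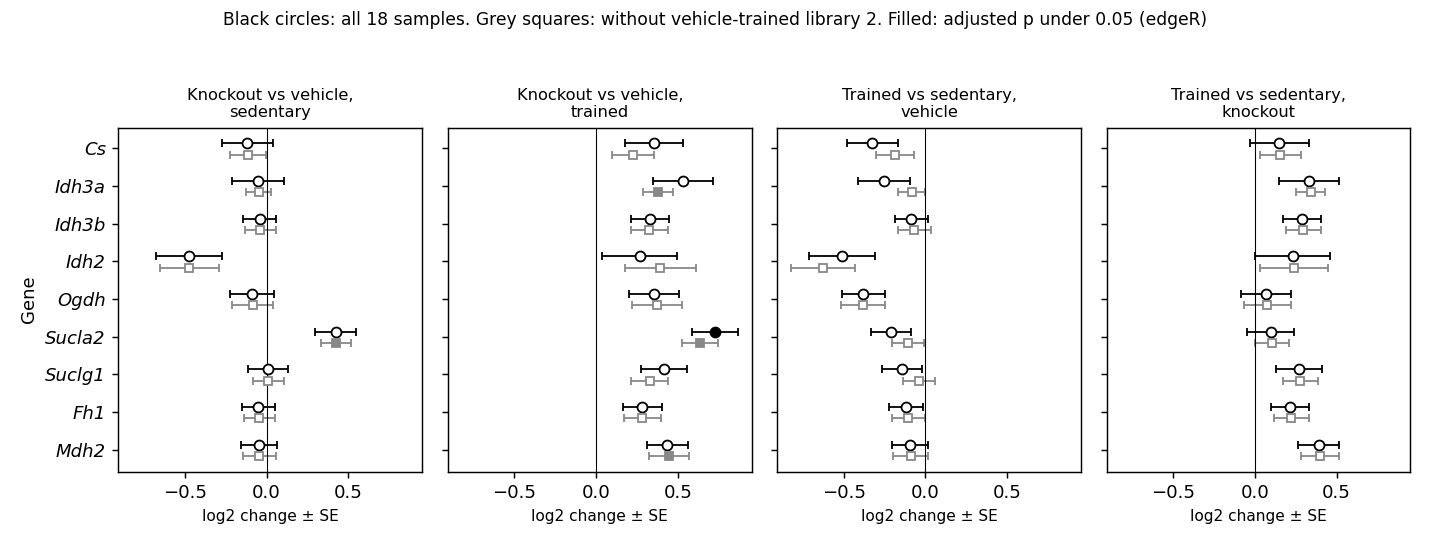
Log2 changes with SE (x axis) of the 9 cycle genes (y axis) in 4 comparisons, from edgeR with all 18 samples (black circles) and without vehicle trained library 2 (grey squares), filled where the adjusted p is under 0.05. With all samples the only filled symbol is Sucla2 in trained muscle, and without the library Idh3a, Sucla2 and Mdh2 are filled there and Sucla2 in sedentary muscle.

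Levels were compared between members on the scale of CPM per kilobase of exon, from the joined exon lengths in GENCODE M21. In vehicle sedentary muscle the mean level was 128.5 for Mdh2, 118.2 for Cs, 107.0 for Idh3a, 103.2 for Ogdh, 103.0 for Idh2, 98.5 for Sucla2, 82.3 for Idh3b, 52.4 for Fh1 and 38.4 for Suclg1. Neighbours in this order overlapped in their ranges over samples, except that Idh3b lay above Fh1 and Fh1 above Suclg1 in every library. Fh1 and Suclg1 held the last places in all 4 groups. The order depends on the joined lengths, which count every annotated exon, 3392 bases for Fh1 and 4617 for Suclg1. On CPM without that division, Suclg1 lay above Fh1 in vehicle sedentary libraries 2, 3 and 4 and below it in libraries 1 and 5. Sucla2 stood at place 6 in vehicle sedentary, 1 in knockout sedentary, 4 in vehicle trained and 2 in knockout trained muscle, and Idh2 at place 5 in vehicle sedentary and 7 in the other groups.

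Over the 18 samples, the members followed one another to different degrees. The correlation of a gene's standardised log2 level with the mean of the other 8 was highest for Idh3b (r = 0.866) and lowest for Sucla2 (0.682) and Idh2 (0.448). Over 17 samples without vehicle trained library 2 it was highest for Mdh2 (0.939) and lowest for Idh2 (0.627) and Sucla2 (0.589), and by rank correlation over all 18 it was highest for Idh3a (rho = 0.917). The genes outside the 9 most like their mean were Ndufv1 of complex I (r = 0.972), Atp5b (0.970) and Atp5a1 (0.950) of ATP synthase, and Uqcrc1 and Uqcrc2 of complex III (0.945 each). Without vehicle trained library 2 they were Atp5b (0.978), Uqcrc1 (0.969), Ndufv1 (0.967), Atp5a1 (0.956) and Acadvl (0.942), the last a fatty acid oxidation gene. These correlations are descriptions over samples that share groups and library scaling, without a test.

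Other genes of mitochondrial metabolism were read from lists of known members, beside 1.99% of all genes called higher in trained muscle and 17.2% at an unadjusted p under 0.05. Those shares are for all 18 samples, where 187 of 14359 genes were called lower. Without vehicle trained library 2, 720 of 14359 genes were called higher and 524 lower, 8.66% in either direction, and counts from that fit are to be read beside these. In trained muscle 4 of 8 other cycle enzyme genes rose (Sdhc, Sdhd, Sdhb and Idh3g), none fell, and the list's median log2 change was 0.43. Of 36 nuclear genes of complex I, which takes up the NADH of the cycle, 10 rose and none fell (median 0.51; 15 rose without vehicle trained library 2), led by Ndufb7 (log2 change 0.75, SE 0.153, edgeR adjusted p = 0.0103) and Ndufb3 (0.71, SE 0.139, adjusted p = 0.00704). Of 17 fatty acid oxidation genes, a source of acetyl-CoA for the cycle, 7 rose (8 without that library, with Etfb) and none fell, led by Acadm (log2 change 1.04, SE 0.152, edgeR adjusted p = 0.000806) and Hadhb (0.90, SE 0.159, adjusted p = 0.00325). Of 10 genes for exchange with amino acids, malate and ketones, 1 rose, the NADP-dependent malic enzyme Me3 (0.75, SE 0.111, edgeR adjusted p = 0.000853). With vehicle trained library 2 left out, 4 of the 10 rose (Me3, Got1, Got2 and Gpt2), and the list's median went from 0.09 to 0.37. Of 11 glycolysis genes 1 fell, Hk2 (-1.67, SE 0.428, edgeR adjusted p = 0.0391). Vehicle trained library 2 held 1879 CPM of Hk2, and without it the change was -0.93 (edgeR adjusted p = 0.00137). None of 7 pyruvate entry genes, 9 genes of lipoylation and complex II assembly and 8 regulators of mitochondrial biogenesis were called with edgeR, with 3, 4 and 4 of them at an unadjusted p under 0.05. In the fit that left out vehicle trained library 2, Pdhb rose and Mpc1 fell among the pyruvate entry genes and Esrra rose among the regulators, and Pfkm fell and Pgam2 rose among the glycolysis genes.

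In sedentary muscle with all 18 samples, the only calls among these lists were in pyruvate entry, where 2 of 7 genes fell. Of all 14359 genes, 2.33% were called there, 188 of them lower. Mpc1, a subunit of the mitochondrial pyruvate carrier, was at 242.4 to 304.8 CPM in vehicle and 142.8 to 192.5 CPM in knockout libraries, with no overlap (log2 change -0.66, SE 0.123, edgeR adjusted p = 0.00455). Pcx, pyruvate carboxylase, which supplies oxaloacetate, was at 47.9 to 68.1 CPM in vehicle and 31.3 to 49.0 CPM in knockout libraries (log2 change -0.63, SE 0.148, edgeR adjusted p = 0.0243). Leaving out vehicle trained library 2, the calls in sedentary muscle were these 2 and 5 more, the falls of Hk2, Pfkm, Oxct1 and Ppargc1a and the rise of Acadm. In that fit 6.98% of all genes were called, 451 higher and 551 lower, so calls over lists of this size are no result about the lists.

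Both comparisons of trained with sedentary muscle gave no call in any of these lists with all 18 samples. In knockout muscle, 34 of the 36 complex I genes had an unadjusted p under 0.05 for training, against 9.71% of all genes, and the list's median log2 change was 0.64. The samples were uneven: the list's mean log2 level, relative to vehicle sedentary muscle, was 0.24 in knockout trained sample 1+4. It was 0.85 and 0.76 in knockout trained samples 2 and 3+5, and -0.02 to 0.09 in knockout sedentary libraries. Vehicle trained library 1 was at 0.52, and the other vehicle trained libraries at -0.09 to 0.10. When vehicle trained library 2 was left out, 16 of the 36 and 2 of 11 glycolysis genes (Gapdh and Pgam2) rose with training in knockout muscle, where 0.843% of all genes were called. None of the 9 cycle genes was called there, and in vehicle muscle the lists gave no call in that fit either.

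The levels of fibre type markers are given beside those of the cycle genes. The summed level of the 8 slow and oxidative fibre markers was 2721 to 4154 CPM in vehicle sedentary, 1495 to 3311 in knockout sedentary, 982.3 to 2677 in vehicle trained and 2382 to 2695 in knockout trained samples. Their median log2 change in trained muscle was 0.85, with 0 of 8 called by edgeR, 5 of 8 at an unadjusted p under 0.05 against 17.2% of all genes, and, without vehicle trained library 2, 1 called (Tnni1). Of 5 general fibre markers 1 was called in trained muscle, Mb (myoglobin, log2 change 0.96, SE 0.252, edgeR adjusted p = 0.0439), with Mylpf also called without vehicle trained library 2, and their sum was 39780 to 57270 CPM in vehicle and 45640 to 67690 CPM in knockout samples. The 4 fast fibre markers summed to 18680 to 36830 CPM in vehicle trained and 32750 to 40040 CPM in knockout trained samples. Among the other cell types, 5 macrophage markers summed to 129.0 to 304.0 CPM in vehicle trained and 41.4 to 271.3 CPM in knockout trained samples, and 5 fibroblast markers to 1634 to 2663 and 840.2 to 2023 CPM. Of the fibroblast markers, Col3a1 was called higher in knockout sedentary libraries when vehicle trained library 2 was left out. Lists for blood, adipocytes, Schwann cells, endothelium and satellite cells gave no call in any comparison, and no marker was at 0 in every sample of a group. The part of fibre type and of other cells in the levels of the cycle genes was not tested, and in whole muscle fewer cells of a type and less RNA per cell cannot be told apart.

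**Figure D5:**
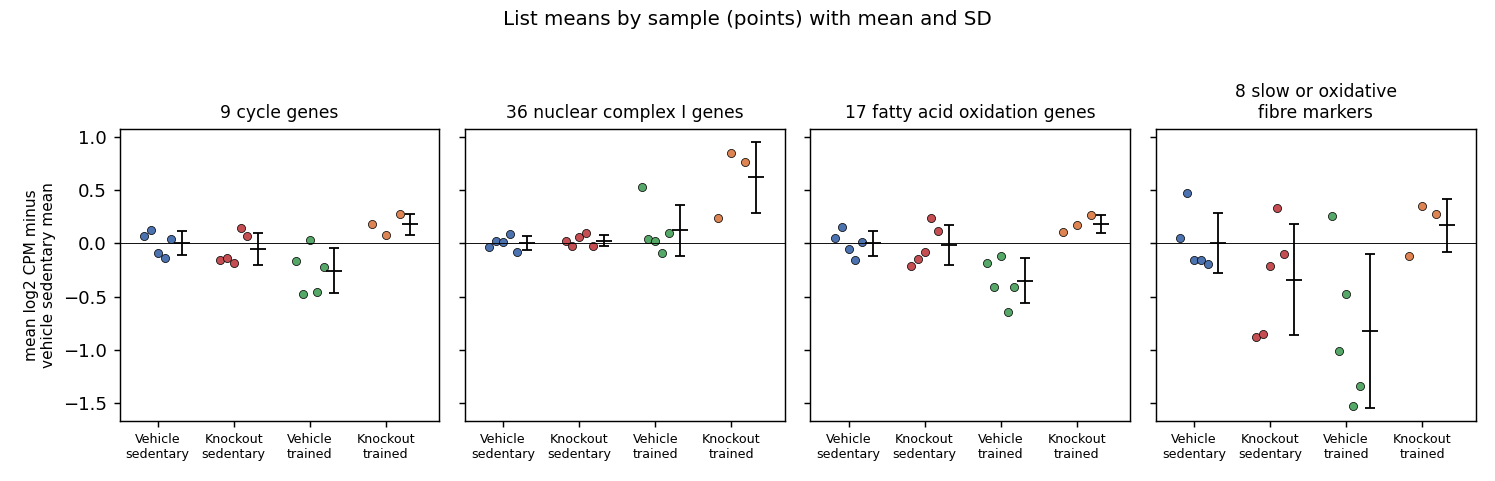
Mean log2 CPM of 4 gene lists minus their vehicle sedentary mean (y axis), by group (x axis), with 1 point per sample and the mean and SD beside the points. The 9 cycle genes range from -0.47 to 0.03 in vehicle trained and from 0.08 to 0.27 in knockout trained samples, and the slow and oxidative fibre markers from -1.53 to 0.26 and from -0.12 to 0.35.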

How the data were processed

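RNA was measured in 20 mouse hindlimb muscle libraries. The authors deposited estimated counts per gene, not normalized as far as the values show, under a name that says CPM. Of the values 72% are whole, and column sums differ between libraries. The submitters' processing notes name Partek, STAR 2.7.8a, DESeq2 and the builds mm10 and GRCm39 without saying what each was used for. The quantifier, annotation and strandedness are not given in the sources used here. Counts were rounded and tested with edgeR 4.0.16 (R 4.3.3, limma 3.58.1): quasi-likelihood test, TMM scaling, 4 group means, genes with at least 1 CPM in at least 5 libraries, two-sided, Benjamini-Hochberg adjustment over all 14359 tested genes, threshold 0.05. Standard errors are the change divided by the root of F. Groups follow the treatment label.

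All 190 pairs of libraries were compared for sampling noise. In 2 pairs the noise at high counts was at most 1.25 times that at low counts, with a limit of 1.5, and each was summed to 1 sample. Depth was 12929215 to 19153527 counts in vehicle sedentary, 11506037 to 18969645 in knockout sedentary, 13905274 to 17564810 in vehicle trained and 10610333 to 13079961 in knockout trained libraries.

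The 9 genes and the lists were chosen with earlier results of these data known. Genes named are the 9 members, Arntl, the partner genes Idh3g, Dlst, Dld and Suclg2, up to 5 genes per list past the threshold, largest change first, and the 5 genes most like the members' mean. A further gene of the rule is not reported here. Sdha, and genes called in the fit without vehicle trained library 2 alone, were named outside that rule, after their values were seen. Alternatives were DESeq2 1.42.0, other scalings, no filter, separate libraries, 2-group fits, a replicate block, limma on log2(CPM + 1) and log2(CPM + 0.1), voom with quality weights, and leaving out each sample. Keeping 1 library of each near-identical pair was added after seeing the data. The test was tested on simulated data. Positions and exon lengths come from GENCODE M21 and promoter windows from RefSeq (GRCm38.p6), where 8 of the 9 genes matched and Idh3a had no entry.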

Additional observations from a re-analysis of the deposited data

Results flagged for a closer look

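Among 27 groups of 4 or 5 samples examined for the 9 cycle genes, 2 held a sample far from the others, where chance gives about 1.35. Idh3a in vehicle trained library 2 was 236.4 CPM, while the other 4 libraries of its group lay between 461 and 546 CPM. The same library had 143.7 CPM of Arntl and 4858 genes more than 2-fold from the rest of its group. Idh2 in vehicle sedentary library 2 was 341.6 CPM, while the other 4 libraries of its group lay between 234 and 255 CPM. That library also had the highest slow and oxidative fibre marker mean of its group, 0.47 above the group's mean on the log2 scale.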

How the results depend on the processing

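Over all alternatives, 1250 of the members' values kept their direction and their side of the threshold, 33 passed it where the reported value had not, 1 lost it and 12 turned sign. Sucla2 in trained muscle stayed past the threshold in 28 of 29 alternatives (adjusted p from 2.08e-05 to 0.312). It was lost with only the 2 trained groups in the fit. In sedentary muscle it was called in 5 of 29 (0.00214 to 0.233). Genes called in sedentary muscle (334) became 537 with DESeq2, 1177 with 2 groups and 1325 with voom quality weights; cycle genes called became 1 with each of these and without TMM. Genes called in trained muscle (473) became 907 with DESeq2, 1225 with 20 separate libraries, 20 with 2 groups and 4093 with voom weights; cycle genes called became 2, 6, 0 and 8. Training in vehicle muscle gave 15 genes with DESeq2 and 1 with voom weights. Training in knockout muscle gave 198 genes with DESeq2, 49 with separate libraries and 3902 with voom weights, and 1 cycle gene with DESeq2 and 5 with voom weights. The interaction gave 26 genes with DESeq2 and 1211 with voom weights, the latter with 6 cycle genes. The causes were not tested.

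Leaving out 1 sample moved the genes called from 251 to 1002 (without vehicle trained library 2) in sedentary muscle and from 177 (without knockout trained sample 3+5) to 1244 (without vehicle trained library 2) in trained muscle, where 299 were called without knockout trained library 2. It moved cycle genes called from 0 to 1 and from 1 to 3, the 1 and the 3 without vehicle trained library 2. Training gave 0 to 1 genes in vehicle muscle (1 without vehicle trained library 5) and 0 to 397 in knockout muscle (397 without knockout trained sample 1+4, 121 and 45 without vehicle trained libraries 2 and 1). Without TMM, the sedentary calls were 172 higher and 155 lower (146 and 188 with it), and the trained calls 215 and 214 (286 and 187 with it). Without TMM the sedentary changes of Idh3a, Idh3b, Fh1 and Mdh2 were 0.0015, 0.011, 0.0046 and 0.0075, and the training changes in knockout muscle of Ogdh and Sucla2 were -0.063 and -0.042. Over all alternatives, the sedentary changes of Suclg1 ran from -0.048 (without knockout sedentary library 4) to 0.061. Those of Mdh2 ran from -0.10 to 0.0081 (without knockout sedentary library 3). The training change of Ogdh in knockout muscle ran from -0.063 to 0.198, and was -0.015 without knockout trained sample 1+4.

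The replicate numbers are not stated to pair the samples. Deviations were correlated above 0.1 in 9 of 24 same-numbered pairs (r from -0.38 to 0.36, median 0.03). The same held for 30 of 96 differently numbered pairs (r from -0.39 to 0.39, median -0.02). These values cannot decide whether samples are paired, since a summed sample carried only 1 of its numbers. With the replicate block 295 genes were called in sedentary and 262 in trained muscle and 0 in the other 3 contrasts, with 1 cycle gene, in trained muscle. With 1 library kept of each near-identical pair, an alternative chosen after seeing the data, no count of calls moved by more than 1.5 times.

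With 3 to 5 samples a group and total counts of at least 10610333, the spread between samples, not counting error, limits the members' precision.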
